A study of Mus musculus with 6 samples.

Results

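Mitosis and spindle genes encode the kinases, checkpoint proteins, kinetochore subunits, motors and cytokinesis factors that carry a cell through division. Of 45 genes chosen by name for these roles, 44 had a probe set with that single gene symbol on an Affymetrix mouse array, among 18193 genes with one, and 43 of the 10810 genes tested were members. Each gene is given by its brightest probe set, by the mean over all 6 arrays. Ccnb1, the gene of cyclin B1, had no such probe set and was not analysed here. The probe set of Kif15, a spindle motor, lay below the array medians on every array, between 2.16 and 2.56, and was not tested. The 43 tested members lay above the median of each of the 6 arrays, so none was tested only because 1 group was high.

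The samples were myeloid cells of the marrow (tibia and femur), taken from female mice of the strain HdcGFP, whose background is C57BL/6. The mice carry a green fluorescent reporter of Hdc, the gene of histidine decarboxylase, which makes histamine, so all 6 samples carry the reporter and none is from a mouse without it. A sort for the surface proteins CD11b and Gr1 divided them by green fluorescence into GFP_plus (Hdc-GFP positive or high, 3 samples) and GFP_min (Hdc-GFP negative or low, 3 samples). No treatment is named, and the sources used here give neither the animals' age nor whether each sample had its own mouse. The p-values therefore reflect the spread among 6 samples only, and that spread may be technical. The description of GFP_min replicate b reads Gr1-negative while its sorted-cell label reads Gr1-positive. The deposited values, taken as log2, had medians of 2.82 to 2.88 on the 6 arrays, and arrays of 1 group correlated at 0.996 to 0.998 over the tested genes against 0.959 to 0.964 between groups. The CD11b gene Itgam lay at 11.44 to 11.97 on all 6 arrays, and the Gr1 gene Ly6g was not analysed here. With 3 arrays a group, their number sets the precision.

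As background, a cell enters mitosis when the kinase CDK1 binds its cyclins. It leaves when the anaphase-promoting complex (APC/C), a ubiquitin ligase switched on by Cdc20, marks cyclins and securin for destruction. Most of these genes are silent in resting cells and are transcribed late in the cell cycle. In marrow the dividing stages of the neutrophil line are its precursors, up to the myelocyte, while band and segmented neutrophils no longer divide. In samples of many cells such as these, a difference in the number of dividing cells and one in RNA per cell cannot be told apart.

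Mitotic transcripts were well above the array medians in both groups and differed little between them. At an adjusted p under 0.05 (limma, adjusted over all probe sets tested), 15 of the 43 members were higher in GFP_plus, where 21.0% of all tested genes were, and 3 were lower, where 27.6% of all tested genes were. Calls in either direction thus took in 18 members, against 48.7% of all tested genes. The counts by role given below have the same shares of all tested genes beside them, 21.0% higher and 27.6% lower. The median difference, GFP_plus minus GFP_min, was 0.20 on the log2 scale, against 0.0023 over all tested genes. No member differed by 1 log2 or more, against 1110 of all tested genes, and the members ran from −0.60 for the checkpoint kinase gene Bub1b to 0.57 for the kinetochore gene Nuf2. All 3 GFP_plus arrays lay above all 3 GFP_min arrays in 20 members (27.2% of all genes) and below them in 5 (32.1% of all genes). These counts and the median are on the deposited scale, and with each array centred on bacterial poly-A control RNAs, which subtracts 0.36 from every difference, 0 members were higher, 13 were lower and the median was −0.16. With that centring 51.7% of all tested genes were lower and 4.63% higher. Without GFP_min replicate b, 17 were higher and 3 lower, and without GFP_plus replicate a, 9 were higher and 3 lower.

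**Figure D1:**
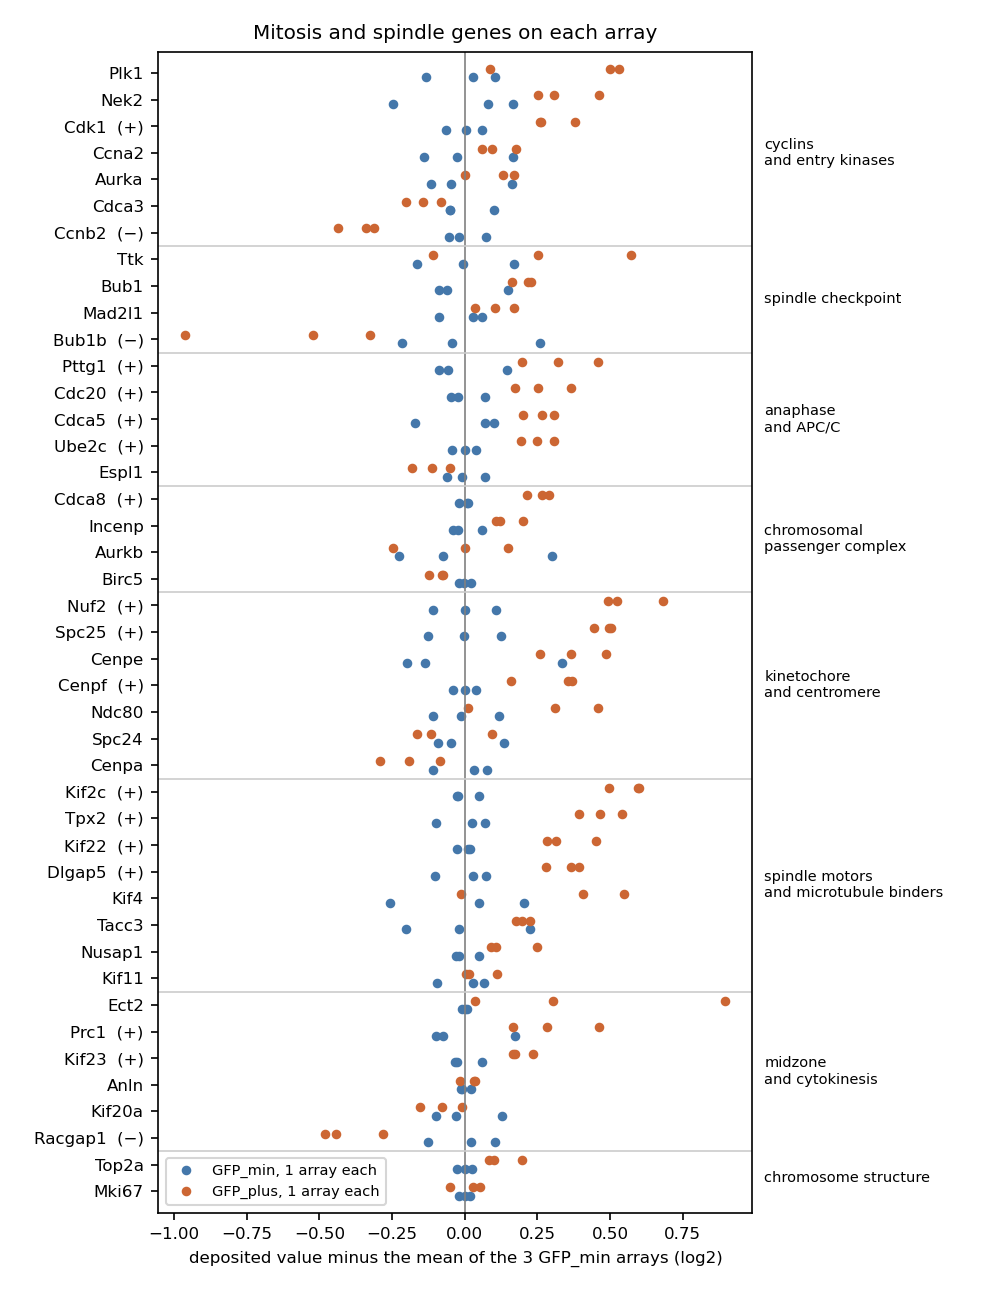
Deposited log2 value of each of the 43 tested genes on each array, minus the mean of its 3 GFP_min arrays; genes are grouped by role, blue points are the 3 GFP_min arrays, orange points the 3 GFP_plus arrays, and (+) or (−) marks a gene higher or lower in GFP_plus at a limma adjusted p under 0.05. Orange points lie to the right of all blue points in 20 genes and to the left in 5; with poly-A centring every orange point would move left by 0.36.

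The promoters of these genes share sequence elements that the choice of members did not use. The CHR element (TTTGAA or TTCGAA) is a textbook site through which late cell cycle genes are held silent in resting cells, and the CCAAT box (CCAAT) is bound by the factor NF-Y. Promoters from RefSeq (build GRCm38.p6, 250 bases before to 50 after a transcript start) were found for 38 of the 45 members by symbol. A CHR match on either strand was present for 29 of the 38 (76.3%), against 21.7% of 27025 genes in the table. A CCAAT match was present for 27 (71.1%), against 41.1%. Both were present for 24 (63.2%), against 8.61%. Within 50 bases of the start, a window chosen after the matches were seen, CHR was present for 27 of the 38 members (71.1%) and for 6.12% of all genes. A match is a description of letters, not a bound site.

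The last 100 bases before the start are shown for a selection of 7 members with a CHR match there and for 2 members that were lower in GFP_plus, in lower case with CHR and CCAAT matches in capitals, 5′ to 3′ on the strand of the gene. TTCAAA and ATTGG are the same elements on the opposite strand. TTCGAA reads the same on both strands, and adjoining matches can share a base. Espl1, Kif15, Mki67 and Prc1 also had a CHR match in these bases and are not shown.

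Cdc20, chr4:118437344-118437443, - strand: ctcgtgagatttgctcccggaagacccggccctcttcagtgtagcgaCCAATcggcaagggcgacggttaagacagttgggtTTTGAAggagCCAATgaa
Cdk1, chr10:69352913-69353012, - strand: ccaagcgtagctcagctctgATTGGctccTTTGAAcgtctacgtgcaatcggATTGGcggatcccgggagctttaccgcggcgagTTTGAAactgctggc
Ube2c, chr2:164769829-164769928, + strand: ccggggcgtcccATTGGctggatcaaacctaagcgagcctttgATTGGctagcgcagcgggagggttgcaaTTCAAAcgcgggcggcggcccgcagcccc
Kif22, chr7:127042421-127042520, - strand: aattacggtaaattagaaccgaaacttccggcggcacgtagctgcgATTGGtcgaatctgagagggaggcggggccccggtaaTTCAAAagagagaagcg
Cdca5, chr19:6084997-6085096, + strand: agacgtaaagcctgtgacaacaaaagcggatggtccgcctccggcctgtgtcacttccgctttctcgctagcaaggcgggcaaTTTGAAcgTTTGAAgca
Kif11, chr19:37376282-37376381, + strand: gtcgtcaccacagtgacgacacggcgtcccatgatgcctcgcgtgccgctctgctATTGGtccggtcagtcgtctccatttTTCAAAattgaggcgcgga
Top2a, chr11:99024190-99024289, - strand: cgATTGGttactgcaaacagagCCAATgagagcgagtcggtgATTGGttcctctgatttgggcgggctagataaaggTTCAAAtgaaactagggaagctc
Ccnb2, chr9:70421555-70421654, - strand: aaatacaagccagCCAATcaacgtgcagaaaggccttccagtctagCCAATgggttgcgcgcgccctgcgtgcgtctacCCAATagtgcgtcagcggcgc
Racgap1, chr15:99651657-99651756, - strand: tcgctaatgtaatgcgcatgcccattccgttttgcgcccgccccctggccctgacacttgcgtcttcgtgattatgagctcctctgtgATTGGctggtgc

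Cdc20, Cdk1, Ube2c, Kif22 and Cdca5 were higher in GFP_plus, Kif11 and Top2a did not pass, and Ccnb2 and Racgap1 were lower. In Ccnb2 and Racgap1 the CHR match nearest the start begins at base 5 and base 6 of the transcript, respectively, and is not shown. Of the members with a promoter entry, 11 of 13 that were higher, all 3 that were lower and 14 of 20 that did not pass held a CHR match. Nuf2 and Pttg1, both higher, had neither element in this window.

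Of the cyclins and kinases that start mitosis, 1 of 7 tested was higher, 1 lower and 5 did not pass, with a median of 0.11. Cdk1, the mitotic kinase itself, was 9.49, 9.62 and 9.56 in GFP_min replicates a, b and c and 9.81, 9.82 and 9.94 in GFP_plus. The groups did not overlap, and the difference of 0.30 (SE 0.07, adjusted p = 0.00817) is a 1.23-fold rise. Ccnb2, the gene of cyclin B2, a partner of that kinase, was 10.13, 10.23 and 10.10 in GFP_min and 9.84, 9.72 and 9.81 in GFP_plus. It fell by 0.36 (SE 0.07, adjusted p = 0.00230), or 1.29-fold, with no overlap, so this cyclin and its kinase moved in opposite directions on the deposited scale. With ribosomal centring, which adds 0.54 to every difference, that of Ccnb2 turned to 0.17 (adjusted p = 0.0423), and with poly-A centring that of Cdk1 turned to −0.059 (0.707).

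Ccna2, the gene of cyclin A2, was 9.93, 10.12 and 9.81 against 10.01, 10.05 and 10.13, a difference of 0.11 (95% interval −0.084 to 0.30, adjusted p = 0.329) with overlapping groups. Plk1, the polo-like kinase of centrosome maturation and kinetochores, was 7.01, 7.09 and 6.85 in GFP_min and 7.48, 7.07 and 7.51 in GFP_plus. GFP_plus replicate b lay among the GFP_min arrays, and the difference of 0.37 did not pass (interval 0.051 to 0.69, adjusted p = 0.0591); without that replicate it was 0.52 (adjusted p = 0.0115). Aurka, the spindle pole kinase Aurora A, was 7.22, 7.43 and 7.15 against 7.44, 7.27 and 7.40, a difference of 0.10 (interval −0.16 to 0.36, adjusted p = 0.517) with overlapping groups. Nek2, a centrosome-splitting kinase, differed by 0.34 (adjusted p = 0.0869) without overlap, and Cdca3, an adaptor for the destruction of the kinase that restrains entry, by −0.14 (0.164), also without overlap.

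The spindle checkpoint holds the APC/C until every kinetochore is attached. Of its 4 genes 1 was lower and 3 did not pass, and the median was 0.15. Bub1b, which encodes the inhibitor BubR1, was 8.65, 8.95 and 8.48 in GFP_min and 8.17, 7.73 and 8.37 in GFP_plus. The arrays scattered more than those of most members, but the groups did not overlap, and Bub1b fell by 0.60 (SE 0.17, adjusted p = 0.0163), or 1.52-fold. Without GFP_min replicate b it did not pass (−0.47, adjusted p = 0.0544), and with ribosomal centring it shrank to −0.067 (0.718). Its probe sets were also called in opposite directions, since a second fell by 0.45 (adjusted p = 0.0303) and the dimmest rose by 0.39 (0.0472). Bub1, the related checkpoint kinase, differed by 0.20 (interval −0.0086 to 0.41, adjusted p = 0.109), Ttk, the kinase Mps1, by 0.24 (0.301) and Mad2l1, the gene of MAD2, by 0.10 (0.277).

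Of the genes of anaphase 4 of 5 were higher and 1 did not pass, and their median was 0.26. Ube2c, the ubiquitin-conjugating enzyme of the APC/C, was 10.89, 10.97 and 10.93 in GFP_min and 11.24, 11.12 and 11.18 in GFP_plus, a rise of 0.25 (SE 0.06, adjusted p = 0.00531). Cdc20, the activator of the complex, was 10.51, 10.49 and 10.60 against 10.90, 10.71 and 10.79, a rise of 0.26 (SE 0.07, adjusted p = 0.0110). The next brightest probe set of Cdc20 differed by 0.037 (adjusted p = 0.788), and its dimmest rose by 0.36 (0.0329). Pttg1, the gene of securin, which restrains separase, was 11.53, 11.74 and 11.50 against 11.91, 11.79 and 12.05, a rise of 0.32 (SE 0.08, adjusted p = 0.00849). The next brightest probe set of Pttg1 differed by 0.062 (adjusted p = 0.656), and its dimmest rose by 0.83 (0.00373). In all 3 genes the groups did not overlap, although the second array of GFP_min came close to that of GFP_plus in Pttg1. Cdca5, the gene of sororin, which protects cohesion between sister chromatids, rose by 0.26 (adjusted p = 0.0410). Espl1, the gene of separase, the protease that cuts cohesin, was the member that did not pass (−0.12, interval −0.37 to 0.14, adjusted p = 0.444). Cdc20 lost its call without GFP_plus replicate a (0.21, adjusted p = 0.0580), and Cdca5 lost it without GFP_min a (0.17, 0.153), GFP_min c (0.29, 0.0573), GFP_plus a (0.23, 0.132) or GFP_plus c (0.25, 0.0853). With poly-A centring these 4 differences lay between −0.11 and −0.034 and none passed.

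Subunits of the APC/C itself were tested beside its activators. Of 19 subunits and regulators of the complex and its checkpoint, 1 was higher (5.26%, against 21.0% of all tested genes). Another 7 were lower (36.8%, against 27.6%) and 11 did not pass. Their median was −0.11 as deposited, 0.090 with median centring, 0.42 with ribosomal centring and −0.47 with poly-A centring. With poly-A centring 0 were higher and 15 lower (78.9%, against 51.7% of all tested genes). Their median minus that of all tested genes was −0.11 as deposited and with each centring. The subunit genes Cdc16 (−1.07, adjusted p = 0.000245), Anapc16 (−0.87, 0.000272) and Anapc10 (−0.44, 0.00457) fell. Cdc27, another subunit, rose by 0.52 (adjusted p = 0.0164).

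The chromosomal passenger complex corrects faulty attachments and guides cytokinesis. Of its 4 genes 1 was higher and 3 did not pass, and the median was 0.055. Cdca8, the gene of borealin, was 10.56, 10.52 and 10.55 in GFP_min and 10.81, 10.83 and 10.76 in GFP_plus, a rise of 0.26 (SE 0.06, adjusted p = 0.0045) without overlap. The gene of its partner survivin, Birc5, was 10.43, 10.41 and 10.39 against 10.33, 10.34 and 10.29. The GFP_plus arrays of Birc5 lay below all GFP_min arrays, but the difference of −0.091 did not pass (interval −0.22 to 0.040, adjusted p = 0.236). Aurkb, the kinase Aurora B, was 7.99, 8.14 and 8.51 against 8.22, 8.36 and 7.97, with overlapping groups and a difference of −0.032 (interval −0.37 to 0.31, adjusted p = 0.881). Incenp, the scaffold, differed by 0.14 without overlap (adjusted p = 0.0670), and 2 of its 3 dimmer tested probe sets rose, by 0.66 and 0.30.

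Of the kinetochore and centromere genes 3 of 7 were higher and 4 did not pass, and their median was 0.29. The NDC80 complex, which grips microtubule ends, has 4 subunits. Nuf2 was 8.39, 8.28 and 8.50 in GFP_min and 8.92, 9.07 and 8.89 in GFP_plus, a rise of 0.57 (SE 0.10, adjusted p = 0.000964) and 1.48-fold, the largest among the members. Spc25 was 9.41, 9.66 and 9.53 against 10.04, 10.03 and 9.98, a rise of 0.48 (SE 0.08, adjusted p = 0.000870). In both genes the groups were well apart. The other subunits did not pass: Ndc80 differed by 0.26 (interval −0.035 to 0.56, adjusted p = 0.137) and Spc24 by −0.061 (interval −0.34 to 0.22, adjusted p = 0.717). Ndc80 passed without GFP_plus replicate b (0.38, adjusted p = 0.0324).

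Cenpf, a large protein of the outer kinetochore, rose by 0.29 (adjusted p = 0.0260), but did not pass without GFP_min a (0.27), GFP_min c (0.31), GFP_plus a (0.26) or GFP_plus b (0.26). Cenpe, the kinetochore motor, differed by 0.37 (adjusted p = 0.0615), since GFP_min replicate b at 8.20 lay within the GFP_plus range, and without that array by 0.54 (0.00394). Cenpa, the histone variant that marks centromeres, differed by −0.19 (adjusted p = 0.0751), while its dimmer tested probe set rose by 0.42 (0.0214). Without GFP_min b or GFP_plus b the brighter one fell by 0.24 (adjusted p = 0.0353 and 0.0379).

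Of 8 spindle motors and microtubule binders 4 were higher and 4 did not pass, and their median was 0.33. Kif2c, the microtubule depolymerase MCAK, was 8.17, 8.17 and 8.24 in GFP_min and 8.79, 8.69 and 8.79 in GFP_plus, a rise of 0.56 (SE 0.09, adjusted p = 0.000494) and 1.48-fold. Tpx2, which activates Aurora A on the spindle, was 7.53, 7.40 and 7.57 against 8.04, 7.97 and 7.89, a rise of 0.47 (SE 0.10, adjusted p = 0.00423). Kif22, a chromosome arm motor, was 7.92, 7.87 and 7.91 against 8.18, 8.35 and 8.21, a rise of 0.35 (SE 0.09, adjusted p = 0.0126). In these 3 genes no GFP_plus array came near a GFP_min array. Dlgap5, a spindle stabiliser, was 6.30, 6.34 and 6.17 against 6.66, 6.64 and 6.55, a rise of 0.35 (SE 0.12, adjusted p = 0.0388) that lost its call when any array but GFP_min b was left out (0.30 to 0.38). The others did not pass: Kif4, a chromosome-bound motor, differed by 0.31, Tacc3, which crosslinks spindle fibres, by 0.20, Nusap1, a microtubule bundler, by 0.15 and Kif11, the motor that separates the spindle poles, by 0.045. Kif4 passed without GFP_plus c (0.48, adjusted p = 0.0496) and Tacc3 without GFP_min b (0.31, 0.0431). The 2 dimmer probe sets of Kif11 rose by 0.29 and 0.56.

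Genes of the spindle midzone and cytokinesis were split, with 2 of 6 higher, 1 lower and a median of 0.10. Racgap1, a GTPase-activating protein of the central spindle, was 8.59, 8.45 and 8.68 in GFP_min and 8.09, 8.29 and 8.13 in GFP_plus. It fell by 0.40 (SE 0.10, adjusted p = 0.00936), or 1.32-fold, with no overlap, and its other tested probe set fell by 0.77 (adjusted p = 0.000163). Kif23, the motor that forms the centralspindlin complex with Racgap1, was 9.69, 9.78 and 9.70 against 9.90, 9.89 and 9.96, a rise of 0.19 (SE 0.07, adjusted p = 0.0424). The 2 genes of this complex were thus called in opposite directions on the deposited scale, and with ribosomal centring Racgap1 turned to 0.13 (0.249). Kif23 lost its call when any array but GFP_min b was left out (0.17 to 0.21).

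Prc1, the bundler of midzone microtubules, was 8.66, 8.93 and 8.69 in GFP_min and 9.05, 8.93 and 9.22 in GFP_plus. It was the called member whose groups overlapped, through the b arrays, with a rise of 0.30 (SE 0.11, adjusted p = 0.0440). It lost its call without GFP_min a (0.26), GFP_min c (0.27), GFP_plus a (0.31) or GFP_plus c (0.22), while its other probe set rose by 0.66 (adjusted p = 0.000306). Ect2, the exchange factor that Racgap1 recruits, differed by 0.41 (adjusted p = 0.125), with GFP_plus replicate b at 6.57 against 5.98 and 5.71 in the other two; without GFP_plus c it passed (0.60, 0.0308). Anln, the gene of anillin, a scaffold of the contractile ring, differed by 0.017 (interval −0.13 to 0.17, adjusted p = 0.858), and its dimmer probe set rose by 0.41. Kif20a, a midzone motor, differed by −0.081 (interval −0.31 to 0.15, adjusted p = 0.560).

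Mki67 and Top2a, common markers of dividing cells, did not pass, whereas Cdk1 and Ccnb2 did, in opposite directions. Pcna, one of the DNA replication genes described below, was lower on the deposited scale (−0.21, adjusted p = 0.00573). Mki67, the gene of the proliferation antigen used in tissue staining, was 11.54, 11.56 and 11.57 in GFP_min and 11.58, 11.61 and 11.50 in GFP_plus. The groups overlapped, and the difference of 0.010 has an interval of −0.10 to 0.12 (adjusted p = 0.885), so a rise beyond 0.12 or a fall beyond 0.10 lies outside it on the deposited scale. Top2a, the topoisomerase that untangles sister chromatids, was 11.30, 11.33 and 11.35 against 11.53, 11.43 and 11.41. Its GFP_plus arrays all lay higher, but the difference of 0.13 did not pass (interval 0.0081 to 0.25, adjusted p = 0.0780). With poly-A centring Mki67 fell by 0.35 (adjusted p = 0.00417), and with ribosomal centring both were higher.

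A difference between 2 genes on the same array keeps its value when a whole array is shifted, as in the 3 centrings, but not under quantile normalization. It was formed for 6 pairs of known partners, chosen after their values were seen, so no test was made. In each pair the gene with the larger difference, by its brightest probe set, is taken first. The positive sign of the group differences was therefore set by the choice, and no share over other gene pairs was formed. Relative to the GFP_min mean, Cdk1 minus Ccnb2 was 0.57, 0.70 and 0.72 on GFP_plus replicates a, b and c and −0.045, −0.013 and 0.059 on GFP_min. Kif23 minus Racgap1 was 0.65, 0.45 and 0.68 on GFP_plus and −0.055, 0.19 and −0.13 on GFP_min. In both pairs the groups were apart, with group differences of 0.66 and 0.59, and with quantile normalization these were 0.66 and 0.54. The groups were apart also for Spc25 minus Spc24, with a group difference of 0.54 (0.39 with quantile normalization), for Cdca8 minus Birc5, with 0.35 (0.33), and for Bub1 minus Bub1b, with 0.81 (0.80). Nuf2 minus Ndc80 overlapped between the groups (0.31, and 0.24 with quantile normalization). The choice of probe set moved these values more. With the dimmest probe set of each gene Bub1 minus Bub1b turned to −0.19, Spc25 minus Spc24 and Cdca8 minus Birc5 shrank to 0.15 and 0.19, and Kif23 minus Racgap1 grew to 1.11. Cdk1 and Ccnb2 have 1 tested probe set each.

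**Figure D2:**
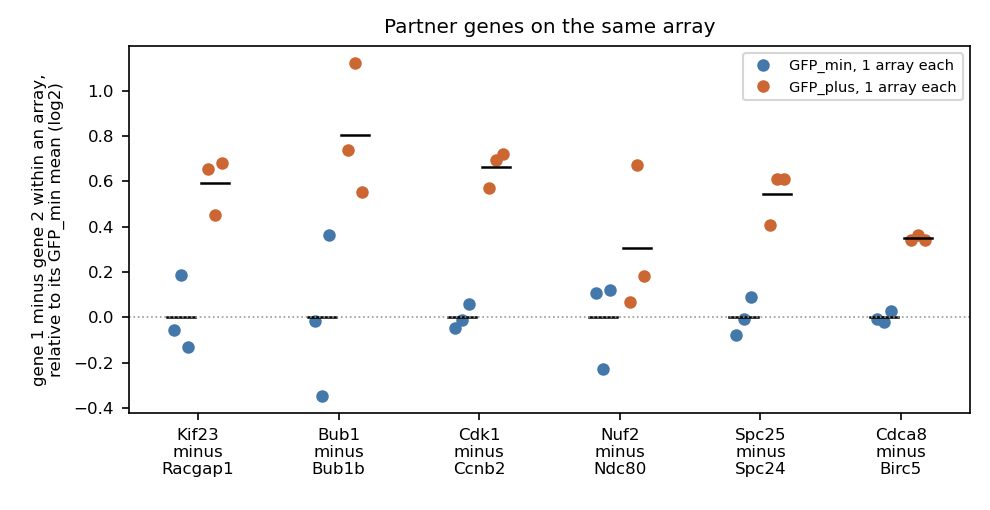
Log2 difference between the genes of a pair on the same array, relative to its mean over the 3 GFP_min arrays; blue points are the GFP_min arrays, orange points the GFP_plus arrays and black bars the group means. In 5 of the 6 pairs all orange points lie above all blue points, and in Nuf2 minus Ndc80 they overlap. The pairs were chosen after their values were seen, with the gene of the larger difference first, so that direction was set by the choice.

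Within a group the members scattered little: the median SD over 3 arrays was 0.090 in GFP_min and 0.073 in GFP_plus, and the median SE of a difference was 0.092. GFP_plus replicate a had the highest value of its group in 22 of the 43 members and the lowest in 5, and GFP_plus replicate b the lowest in 20. In GFP_min, replicate b had the highest value in 20 members and the lowest in 14. The mean over the members was 8.74, 8.82 and 8.77 on the GFP_min arrays and 8.97, 8.91 and 8.92 on the GFP_plus arrays. Of 25 members with several tested probe sets, 10 had the same call (higher, lower or not passed) for all of them. Bub1b alone had calls in opposite directions. A shared call of not passed does not fix the sign, and the 2 probe sets of Ccna2 differed by 0.11 and −0.20. In 5 members that did not pass, Anln, Cenpa, Cenpe, Incenp and Kif11, another probe set was higher. Conversely, another probe set did not pass in the called members Cdc20, Cdca5, Cdca8, Dlgap5, Kif22, Kif23, Pttg1, Spc25 and Tpx2.

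The 5 scalings of the arrays gave different counts for the same values. Of the 43 members, 15 were higher and 3 lower as deposited, 20 and 3 after quantile normalization, 32 and 0 when centred on the tested median, 41 and 0 when centred on 41 ribosomal protein genes, and 0 and 13 when centred on the poly-A controls. The calls over all tested genes moved as well: 21.0%, 25.03%, 41.4%, 68.6% and 4.63% were higher in the same order, and 27.6%, 24.8%, 19.3%, 11.2% and 51.7% were lower. The median difference was 0.20, 0.23, 0.40, 0.74 and −0.16 in the same order. The median over all tested genes moved with it, to 0.049, 0.20, 0.54 and −0.36. The members lay 0.20 above all genes as deposited, which no centring can change, since each adds the same amount to every difference. With quantile normalization the members lay 0.18 above all genes. Each of the 8 role medians was positive as deposited, with quantile normalization and with median or ribosomal centring, and negative with poly-A centring. Nuf2, Kif2c, Spc25 and Tpx2 were called higher in 4 of the 5 scalings and kept a positive difference with poly-A centring without a call there.

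**Figure D3:**
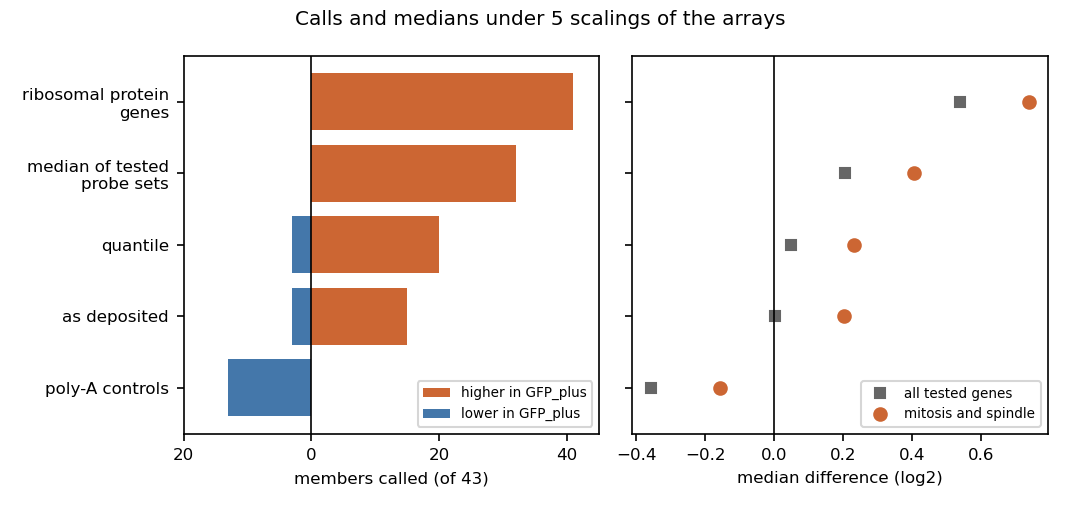
Left, number of the 43 tested members called higher (orange, to the right) or lower (blue, to the left) in GFP_plus by limma under 5 scalings of the arrays; right, median log2 difference of the members (orange circles) and of all tested genes (grey squares). The median of the members runs from −0.16 with poly-A centring to 0.74 with ribosomal centring and stays to the right of that of all genes.

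The rest of the mitotic machinery was described from lists chosen with earlier results of these data known. Of 148 further tested genes in 7 lists, 34 were higher (23.0%, against 21.0% of all tested genes), 17 lower (11.5%, against 27.6%) and the median was 0.075. That balance rests on the deposited scale, with 124 higher, 3 lower and a median of 0.61 under ribosomal centring and 3 higher, 60 lower and −0.28 under poly-A centring. The counts of the single lists given next are on the deposited scale too, and with poly-A centring cohesin had 1 higher and 8 lower, further kinetochore genes 0 and 7, further spindle genes 0 and 16, and transcription factors 1 and 8. Of the condensins, which compact chromosomes, 5 of 8 were higher (62.5%, against 21.0% of all tested genes) and 3 did not pass. Their median was 0.26 as deposited and −0.097 with poly-A centring. Among them Ncapg2 rose by 0.54 (adjusted p = 0.00382), Smc4 by 0.25 (0.00398) and Smc2 by 0.27 (0.00505). Among regulators of the CDK1 switch 5 of 14 were higher (35.7%) and 9 did not pass. Their median was 0.28 as deposited and −0.076 with poly-A centring. The CDK-binding subunit Cks2 rose by 0.45 (adjusted p = 9.29e-05), and the activating phosphatases Cdc25b and Cdc25a rose by 0.92 (0.000390) and 0.58 (0.000738).

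On the deposited scale 21.0% of all tested genes were higher and 27.6% lower, and the share of each list is given beside its count. Of the cohesin genes, which hold sister chromatids together, 4 of 15 were higher (26.7%) and 2 lower (13.3%), with Rad21 up by 0.59 and Stag1 down by 0.70. Among further kinetochore genes 5 of 30 were higher (16.7%) and 2 lower (6.67%), among them Dsn1 (0.71, adjusted p = 0.00173) and Zwint (−0.47, 0.0262). Among further spindle and cytokinesis genes 7 of 40 were higher (17.5%) and 3 lower (7.5%), among them Plk4, the kinase of centriole duplication, up by 0.41 (adjusted p = 0.000929). Of 23 transcription factors known to drive or restrain mitotic genes 7 were higher and 3 lower. Myb, a factor of dividing progenitors, rose by 0.79 (adjusted p = 2.01e-05), Tfdp1, the partner of E2F factors, by 0.39 (0.000101), and Nfya, a subunit of the CCAAT-binding factor, by 0.51 (0.00270). The repressor E2f6 fell by 1.55 (adjusted p = 1.41e-05).

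DNA replication genes act in the cycle before mitosis. Of 53 tested, 11 were higher (20.8%, against 21.0% of all tested genes) and 8 lower (15.1%, against 27.6%). Their median was −0.035 as deposited, 0.014 with quantile normalization, 0.17 with median centring, 0.50 with ribosomal centring (40 higher, 1 lower) and −0.39 with poly-A centring (1 higher, 29 lower). Cdk2 (0.68), Rrm2 (0.43) and Cdc7 (0.61) rose, and Pold2 (−1.35), Cdt1 (−0.43) and Gins4 (−0.54) fell. The genes that decide on entry into the cycle had wider differences. Of 9 tested D cyclins, CDK4/6 and CDK inhibitors, 5 were higher (55.6%) and 3 lower (33.3%). Ccnd2, the gene of cyclin D2, rose by 1.85 (6.49 ± 0.14 to 8.34 ± 0.23, mean ± SD, n = 3 each, adjusted p = 4.72e-06), Cdk6 by 0.82 and Ccnd3 by 0.50, while Cdk4 fell by 1.14, the inhibitor Cdkn1a by 1.52 and Ccnd1 by 0.89. Whether these lists differ from the mitotic genes was not tested.

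**Figure D4:**
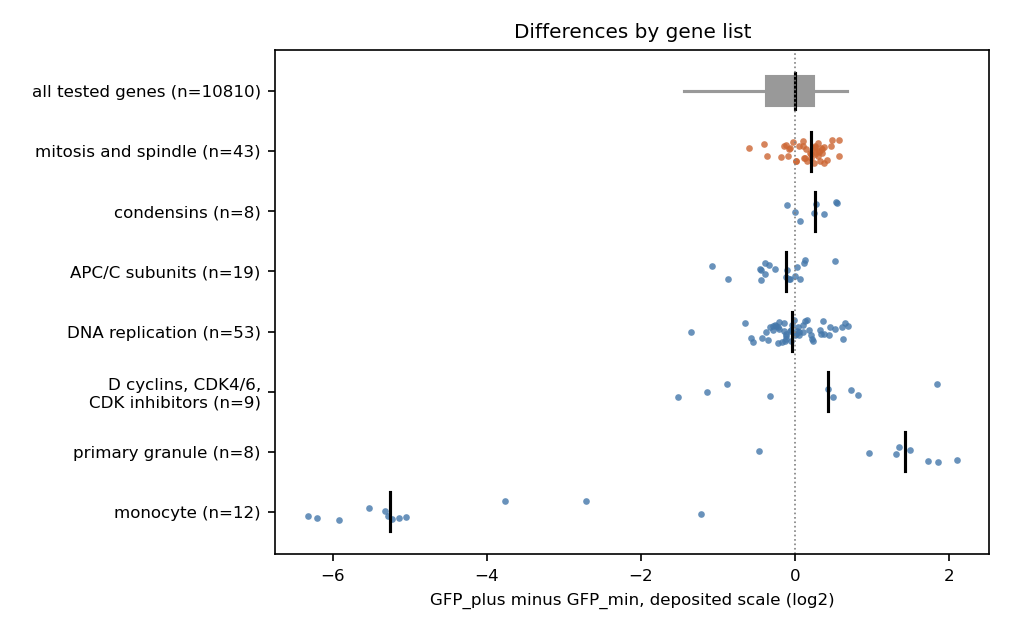
GFP_plus minus GFP_min on the deposited log2 scale for single genes (points, 1 per gene, spread vertically at random) by list, with the list median as a black bar; for all 10810 tested genes the grey box spans the 25th to the 75th percentile, −0.38 to 0.25, and the line runs from the 5th percentile, −1.44, to the 95th, 0.67. The 43 mitosis and spindle genes lie between −0.60 and 0.57, while monocyte markers lie between −6.32 and −1.22; with poly-A centring every point would move left by 0.36.

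Markers of other cells and stages moved between the same samples. The counts below stand beside 21.0% of all tested genes higher and 27.6% lower. Markers of neutrophil precursors (the primary granule list) were higher for 7 of 8, among them Mpo, Elane, Prtn3 and Ctsg, with a median of 1.42. The 1 that was lower was Calr (−0.47), the gene of calreticulin. The summed signal of this list (log2 of the sum of linear values) was 13.18 to 13.27 in GFP_min and 14.24 to 14.44 in GFP_plus. The summed signal of the mitosis and spindle genes was 14.96 to 15.02 and 15.10 to 15.16. Secondary granule markers were higher for 1 of 7, with 6 not passing and a median of 0.051 (16.70 to 16.77 against 16.75 to 16.85). Mature neutrophil markers were higher for 7 of 7 tested (15.37 to 15.40 against 15.70 to 15.75). Monocyte markers were lower for 12 of 12 (15.88 to 15.93 against 12.41 to 12.44), and dendritic cell markers for 6 of 7 tested (10.27 to 10.48 against 7.69 to 7.88). Stem and progenitor markers were higher for 5 of 8 tested (11.69 to 11.82 against 12.24 to 12.40), with Cd34 below the array medians on all arrays. Basophil and mast cell markers were higher for 5 of 5 tested (5.37 to 5.38 against 7.88 to 8.33). The mean over that list was 2.66 to 2.70 on the GFP_min arrays, below the array medians of 2.82 to 2.88, and 4.39 to 4.42 on the GFP_plus arrays. Markers at such a level can enter the test through the GFP_plus arrays alone, so this count is a description only. Of the erythroid markers, another line that divides in marrow, 3 of 4 tested were higher (8.81 to 8.92 against 9.56 to 9.73), but Klf1, Epor, Hba-a1, Alas2 and Gata1 lay below the array medians on all 6 arrays. Eosinophil markers were higher for 2 of 2 tested and megakaryocyte markers for 3 of 4. Of 7 B cell markers 1 was higher and 1 lower, and of 4 T and NK cell markers 2 were lower. With poly-A centring 4.63% of all tested genes were higher and 51.7% lower. The higher calls then fell to 2 of 7 for mature neutrophil, 2 of 8 for stem and progenitor and 1 of 4 for erythroid markers. They fell to 0 of 4 for megakaryocyte and 4 of 5 for basophil and mast cell markers. With this centring 6 of 7 secondary granule markers were lower, and the calls of the primary granule and monocyte lists kept their number. RNA quality was read from how far 3' probe sets exceeded 5' ones, which was 0.26 to 0.37 in GFP_min and 0.59 to 0.66 in GFP_plus for Gapdh, and 0.79 to 0.83 and 0.82 to 0.90, with overlap, for beta-actin. The part of these differences in the values of the mitotic genes was not tested.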

How the data were processed

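An RNeasy Micro kit was used for RNA and a 3' IVT kit for labelling, per the labels' protocols. The authors deposited 1 table of expression values for 45101 probe sets on 6 arrays, taken here as log2 from their range (0.87 to 14.92). GCRMA is named in the submitters' processing notes, without its settings or log base.

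Gene names came from the GEO annotation of the array platform (34945 with 1 symbol, 932 with several, 9160 with none, controls aside; 34741 gene IDs found in RefSeq's GRCm38.p6 table, used to update symbols). After leaving out 64 controls, 22956 probe sets above their array's median on at least 3 of 6 arrays were tested with limma 3.58.1 in R 4.3.3 (eBayes with an intensity trend) and adjusted together by Benjamini-Hochberg; a gene is its brightest probe set. SEs and 95% intervals are limma's moderated ones. On simulated data for this comparison (10810 genes, 200 changed) 47% of differences of 0.5 log2 and 89% of 1 log2 were recovered, with 2 unchanged genes called. In the data 48.7% of tested genes were called, and the adjustment is less strict when more genes change. The simulated rates therefore do not give the recovery in the data. Figures used matplotlib 3.10.9.

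Genes with values on every array were fixed by rule: 13 well-known members, and the 8 largest called rises and falls. Cdca8 and Kif23 were given beyond that rule. Of other lists, the rule named at most 3 genes in each direction with the smallest adjusted p. Pcna, E2f5, Foxm1, Mybl2, Nfyb and Nfyc, and the primary granule genes Mpo, Elane, Prtn3 and Ctsg, were named outside it. The members and lists were chosen with earlier results of these data known, so no list test was made. Alternatives changed the filter, variance model, scaling, probe set choice, replicate block and samples. A planned count of protein motifs was not made.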

Additional observations from a re-analysis of the deposited data

How the results depend on the processing

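The directions given for the members rest on the scale of the arrays, and most calls are small differences close to what 3 arrays a group can resolve; the cause of the changes below was not tested. The level filter on all 6 arrays kept all 18 calls, and the fit without an intensity trend kept 15. With no filter 10 were higher and 3 lower, with the mean of a gene's probe sets 16 and 2, and with the dimmest probe set 14 and 2. Leaving out each sample in turn gave 9 to 17 higher, 3 to 4 lower and a median of 0.18 to 0.24, and 11 of 18 calls held in all 6 fits: Ube2c, Pttg1, Cdca8, Cdk1, Spc25, Nuf2, Kif22, Tpx2 and Kif2c higher, Ccnb2 and Racgap1 lower. Same-lettered arrays did not deviate together (correlations −0.14, −0.33 and −0.18 for a, b and c). The labels do not say whether the letters pair the samples. These correlations cannot settle it, since deviations among 3 arrays may be technical. With the replicate block 9 members were higher and 3 lower.

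Centring on the tested median gave 32 higher, 0 lower and a median of 0.40, on ribosomal protein genes 41, 0 and 0.74, and on poly-A controls 0, 13 and −0.16; over all tested genes 41.4%, 68.6% and 4.63% were then higher and 19.3%, 11.2% and 51.7% lower. By construction each centring shifts all differences by the same amount. With ribosomal centring the falls or negative differences of Espl1 (0.42), Birc5 (0.44), Aurkb (0.50), Ccnb2 (0.17), Cdca3 (0.39), Cenpa (0.35), Spc24 (0.47), Racgap1 (0.13) and Kif20a (0.46) turned positive. With poly-A centring 26 of the 33 positive differences turned negative, of which 14 passed the threshold on at least one of the 2 scales: Ube2c (−0.11), Cdca5 (−0.10), Cdc20 (−0.095), Pttg1 (−0.034), Cdca8 (−0.10), Mki67 (−0.35), Cdk1 (−0.059), Cenpf (−0.064), Anln (−0.34), Kif23 (−0.17), Prc1 (−0.055), Kif11 (−0.31), Dlgap5 (−0.012) and Kif22 (−0.0082). With the dimmest probe set Cenpa (0.42) and Bub1b (0.39) turned positive.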
